A study of Homo sapiens with 10 samples.

Results

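The ABC drug efflux pumps analysed were the 8 genes ABCC1, ABCC2, ABCC3, ABCC4, ABCC5, ABCC10, ABCB1 and ABCG2, a fixed list of ATP-binding cassette (ABC) transporters that carry drugs out of cells. They were found by Ensembl identifier among the 61533 genes of the count tables, in which all 48 ABC genes searched for were present. RNA-seq had been run on 5 libraries of T24, cisplatin-sensitive cells of human bladder cancer origin, and 5 libraries of T24R2, a cisplatin-resistant line raised from T24 by stepwise exposure to the drug. All 10 libraries came from cells at day 3 of culture. The comparison asked how pump mRNA differed between resistant and sensitive cells. The sample labels list RPMI with serum and antibiotics for both lines, whereas the study's methods state that T24R2 was kept in cisplatin, so the line and drug exposure cannot be told apart. T24R2 is a single derived line, and nothing in the labels states that the replicates were separate cultures, so p-values measure only the spread between these libraries.

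ABC transporters bind and hydrolyse ATP to move substrates across membranes. The ABCC pumps, the multidrug resistance-associated proteins, export organic anions and conjugates of drugs with glutathione, glucuronate or sulfate. ABCB1 (P-glycoprotein) and ABCG2 (breast cancer resistance protein) export hydrophobic drugs, including drugs used in urothelial cancer. Cisplatin can leave cells as a glutathione conjugate, and ABCC2 is the pump most often linked to it.

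Depth was similar across libraries. Total counts were 9257843 to 10247941 in T24 and 9591379 to 10840954 in T24R2, and mitochondrial genes took 2.35% to 2.97% of them. The epithelial keratins KRT7, KRT8 and KRT18 were abundant in both lines, while KRT5, KRT20 and UPK1B were at or near 0. Of 13 urothelial markers, 7 were tested and all 7 were called lower in T24R2, as were 26.5% of all tested genes (calls are defined below). The summed level over the 13 was 4746 to 5471 CPM (counts scaled to a common library size) in T24 and 3028 to 3232 CPM in T24R2. Most of this sum was KRT7, KRT8 and KRT18. Their means were 2242, 1541 and 1112 CPM in T24 and 1370, 1009 and 691 CPM in T24R2. The other called markers fell more in proportion. From T24 to T24R2, mean CPM went from 22.1 to 0.214 for GATA3 and from 66.7 to 13.8 for FOXA1. PPARG went from 75.9 to 26.2 CPM and UPK2 from 9.90 to 2.74 CPM. Markers of blood, vessel and stromal cells summed to 4.52 to 7.66 CPM in T24 and 1.08 to 4.41 CPM in T24R2. PECAM1 fell from 35 to 60 counts per library in T24 to 8 to 18 in T24R2. PTPRC went the other way, at 0 to 1 and 2 to 10 counts, and CD68 held 1 to 8 and 1 to 17, with CD3E, DCN, LUM and HBB at 0 to 3 counts in every library. The part of these marker differences in the pump results was not tested.

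Sequences upstream of the start site are shown for pumps that were higher (ABCC2, ABCC5), lower (ABCG2) and not called (ABCC4), because regulators described further on bind short motifs. RefSeq (GRCh38.p14) windows were matched for 6 of the 8 pumps, with 12 windows in all. ABCC1 and ABCC3 had no window, so no motif was searched for in them. Each line comes from the longest stretch outside the counted exons in the 250 bases before the start. At most the 150 bases of it nearest the start are printed, 5′ to 3′ on the gene's strand. The printed bases end 0 bases before the start for ABCC2, 24 for ABCC4, 55 for ABCC5 and 115 for ABCG2. Capitals mark matches on either strand to TGACNNNGC (core of the antioxidant response element), GCGTG (AHR core), CACGTG (E-box) or GGGCGG (GC box).
ABCC2, chr10:99782490-99782639, plus strand: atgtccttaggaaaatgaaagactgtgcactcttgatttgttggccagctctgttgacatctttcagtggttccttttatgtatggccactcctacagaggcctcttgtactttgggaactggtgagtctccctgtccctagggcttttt
ABCC5, chr3:184017940-184018089, minus strand: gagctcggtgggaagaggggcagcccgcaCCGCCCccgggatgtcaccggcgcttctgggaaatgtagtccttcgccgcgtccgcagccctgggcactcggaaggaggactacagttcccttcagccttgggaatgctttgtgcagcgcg
ABCC4, chr13:95301476-95301625, minus strand: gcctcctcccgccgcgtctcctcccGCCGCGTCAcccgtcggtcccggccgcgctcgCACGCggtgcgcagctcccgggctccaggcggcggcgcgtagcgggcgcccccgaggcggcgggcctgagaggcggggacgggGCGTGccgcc
ABCG2, chr4:88159025-88159159, minus strand: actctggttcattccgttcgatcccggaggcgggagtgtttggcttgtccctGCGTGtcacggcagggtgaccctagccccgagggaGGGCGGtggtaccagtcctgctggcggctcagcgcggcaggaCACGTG

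Of these 4 stretches, ABCC2 had 46.0% G and C bases, ABCC5 66.0%, ABCG2 66.7% and ABCC4 84.0%. The ABCG2 stretch comes from 1 of its 5 windows, and these differed among themselves, the lowest at 40.7%. The ABCG2 windows with stretches of 40.7% and 43.3% held no match to any of the motifs. Over the 250 bases before the start, the antioxidant response core was found in ABCC4, 149 bases before its start, and in a window of ABCC10, 143 bases before its start. It was present in 10.9% of the 34943 RefSeq windows of that length. No window of ABCC2, ABCC5, ABCB1 or ABCG2 held it, which says only that these letters are not in these windows. The AHR core was in 32.2% of all windows, the E-box in 6.32% and the GC box in 42.55%. ABCG2 held the first of these in 3 of its 5 windows, which overlap each other in part. ABCC4, ABCC10 and ABCB1 each held the AHR core in a window too. The E-box was found in windows of ABCG2 and ABCC10.

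Of the 8 pumps, ABCC2, ABCC3 and ABCC5 were higher in T24R2, ABCB1 and ABCG2 were lower, and ABCC1, ABCC4 and ABCC10 were not called. A gene was called at an adjusted p under 0.05 and an absolute log2 fold change (log2FC) over 0.5 in edgeR's quasi-likelihood test, adjusted over 16181 tested genes by the Benjamini-Hochberg method. The lines differed widely: 51.4% of tested genes were called, 24.9% higher and 26.5% lower in T24R2, so 5 called pumps of 8 is a share near the background. All 5 libraries of a line lay above all 5 of the other for 6 of the 8 pumps, and for 61.2% of tested genes. All 8 pumps passed the count filter, ABCC2 only through its counts in T24R2 and ABCG2 only through its counts in T24. The median log2FC was 0.10 over the pumps and 0.01 over all tested genes.

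**Figure D1:**
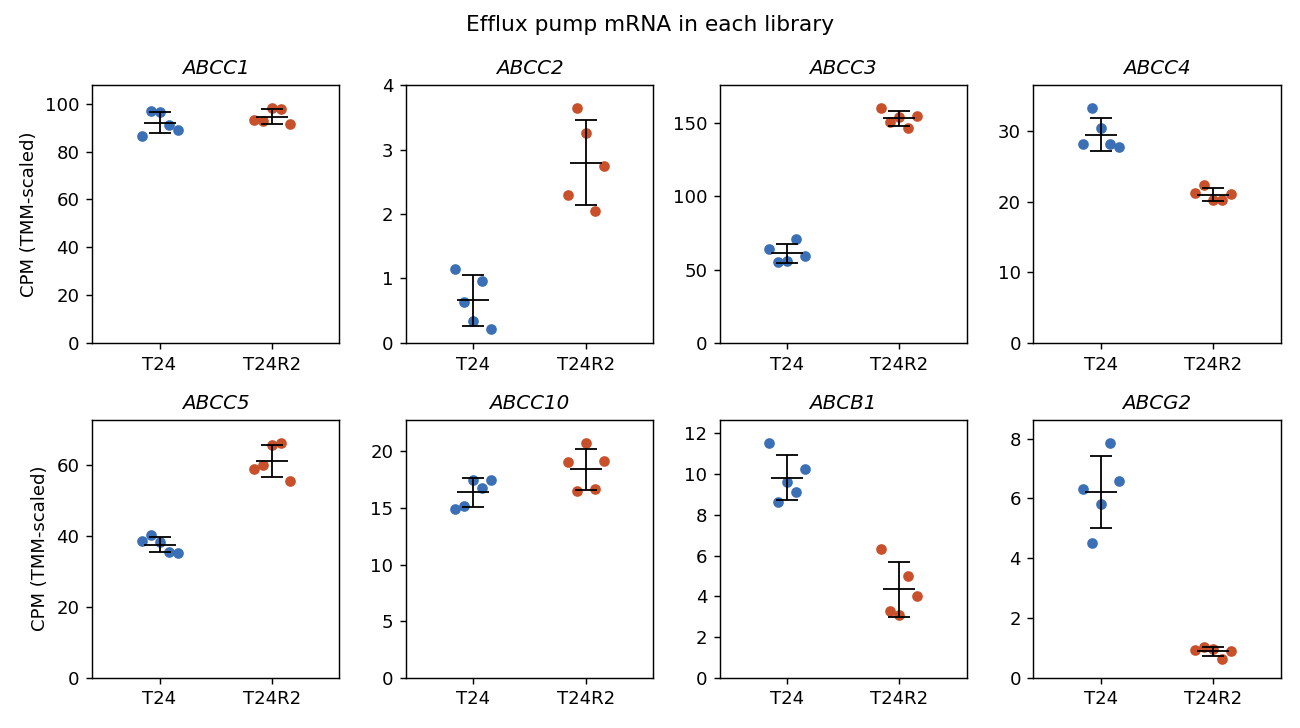
mRNA of each pump in CPM (vertical axis from 0, scale differs between panels) in the 5 T24 and 5 T24R2 libraries. Points are libraries in replicate order and bars are mean ± SD; the lines do not overlap for ABCC2, ABCC3, ABCC4, ABCC5, ABCB1 and ABCG2, and overlap for ABCC1 and ABCC10.

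ABCC3 (MRP3, ENSG00000108846.16, chr17:50634777-50692253, plus strand), an exporter of glucuronides at the basolateral membrane, had the largest gain in CPM of the 8 pumps. Its T24 libraries 1 to 5 held 616, 527, 492, 660 and 550 counts, and its T24R2 libraries held 1745, 1737, 1604, 1643 and 1578. Every T24R2 library was above every T24 library. In CPM, scaled by the trimmed mean of M-values (TMM), this was 61.2 ± 6.41 in sensitive and 153 ± 5.13 in resistant cells (SD, n = 5 each), a ratio of 2.50. The log2FC was 1.32 (SE 0.06, 95% interval 1.21 to 1.44), with an adjusted p of 5.82e-23 in edgeR's quasi-likelihood test. The coefficient of variation among T24 libraries was 10.5%, above the 4.19% that counting error alone gives.

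ABCC5 (MRP5, ENSG00000114770.17, chr3:183919934-184017939, minus strand), which exports cyclic nucleotides and nucleotide analogues, rose less. T24 libraries held 370, 382, 335, 329 and 325 counts and T24R2 libraries 641, 691, 681, 741 and 564, without overlap. Levels were 37.5 ± 2.17 CPM and 61.1 ± 4.50 CPM (SD, n = 5 each), a ratio of 1.63. The log2FC was 0.71 (SE 0.07, 95% interval 0.57 to 0.84; adjusted p 2.36e-12, edgeR's quasi-likelihood test).

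ABCC2 (MRP2, ENSG00000023839.12, chr10:99782640-99852594, plus strand), an apical exporter of glutathione and glucuronate conjugates, rose from a very low level. T24 libraries held 11, 6, 3, 9 and 2 counts and T24R2 libraries 25, 42, 34, 23 and 28. All T24R2 libraries were above all T24 libraries, but no library passed 42 counts. Levels were 0.660 ± 0.395 CPM and 2.80 ± 0.660 CPM (SD, n = 5 each). The log2FC was 2.05 (SE 0.34, 95% interval 1.36 to 2.75; adjusted p 1.29e-06, edgeR's quasi-likelihood test), the widest interval of the 8 pumps. From summed counts of 31 and 152, the ratio was 4.20 with an exact 95% counting interval of 2.84 to 6.39, which covers counting error only.

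ABCG2 (ENSG00000118777.12, chr4:88090150-88231628, minus strand), which pumps as a dimer and exports drugs, urate and porphyrins, had the largest fall of the 8 pumps on the log2 scale. T24 libraries held 61, 43, 51, 73 and 61 counts and T24R2 libraries 10, 12, 10, 7 and 9. The highest T24R2 library was far below the lowest T24 library. Levels were 6.22 ± 1.21 CPM and 0.885 ± 0.157 CPM (SD, n = 5 each), so T24R2 held 14.2% of the T24 level. The log2FC was -2.80 (SE 0.25, 95% interval -3.30 to -2.30; adjusted p 3.96e-13, edgeR's quasi-likelihood test).

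ABCB1 (ENSG00000085563.15, chr7:87503017-87713323, minus strand), the exporter of taxanes, anthracyclines and vinca alkaloids, also fell. T24 libraries held 111, 82, 84, 85 and 95 counts and T24R2 libraries 69, 38, 32, 56 and 41. The lines did not overlap, with T24R2 library 1 nearest to T24. Levels were 9.83 ± 1.12 CPM and 4.34 ± 1.34 CPM (SD, n = 5 each), or 44.2% of the T24 level. The log2FC was -1.18 (SE 0.17, 95% interval -1.52 to -0.83; adjusted p 8.53e-08, edgeR's quasi-likelihood test). T24R2 libraries varied by 30.9%, against 14.6% from counting error alone.

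ABCC4 (MRP4, ENSG00000125257.16, chr13:95019835-95301475, minus strand), an exporter of cyclic nucleotides and prostaglandins, narrowly missed the fold change minimum and was not called. T24 libraries held 271, 316, 266, 262 and 257 counts and T24R2 libraries 231, 258, 211, 227 and 215. The counts overlapped, whereas the CPM, at 27.8 to 33.2 in T24 and 20.2 to 22.4 in T24R2, did not. The log2FC was -0.49 (SE 0.08, 95% interval -0.66 to -0.32; adjusted p 1.80e-06, edgeR's quasi-likelihood test). Without T24 replicate 1, 4 or 5 or T24R2 replicate 2 it was -0.51, -0.51, -0.52 and -0.51, and was called lower.

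ABCC1 (MRP1, ENSG00000103222.20, chr16:15949138-16143257, plus strand), the founding member of its family and an exporter of glutathione conjugates, was close in both lines. T24 libraries held 835, 922, 846, 849 and 826 counts and T24R2 libraries 1015, 1073, 1022, 1097 and 929. In CPM the lines overlapped, at 92.2 ± 4.56 and 94.7 ± 3.05 (SD, n = 5 each). The log2FC was 0.04 with a 95% interval of -0.06 to 0.14 (adjusted p 0.495, edgeR's quasi-likelihood test).

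ABCC10 (MRP7, ENSG00000124574.15, chr6:43427366-43450427, plus strand), an exporter of taxanes, held 144, 144, 153, 156 and 162 counts in T24 and 208, 190, 216, 187 and 195 in T24R2. Its CPM overlapped between lines, at 16.4 ± 1.24 and 18.4 ± 1.82 (SD, n = 5 each). The log2FC was 0.17 with a 95% interval of -0.03 to 0.37 (adjusted p 0.122, edgeR's quasi-likelihood test). It was the only pump with exon bases overlapped from the opposite strand, 0.94% of them, by DLK2.

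Exact two-sided permutation tests of CPM gave a p of 0.00794 for ABCC2, ABCC3, ABCC4, ABCC5, ABCB1 and ABCG2, the smallest p that 5 against 5 libraries allow. They gave 0.325 for ABCC1 and 0.0794 for ABCC10. Scaling by library size alone moved the median log2FC of all genes to 0.18, and the split of calls from 4027 higher and 4282 lower to 5206 and 3431. All 5 called pumps kept their direction and call under it.

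Levels of different pumps were compared per exon length, as FPKM, the CPM divided by the gene's exon length in kilobases (mean ± SD of 5 libraries). In T24 the order was ABCC1 at 10.6 ± 0.522, ABCC3 at 6.36 ± 0.667, ABCC4 at 3.42 ± 0.268, ABCC5 at 3.30 ± 0.191, ABCC10 at 2.02 ± 0.154, ABCB1 at 1.53 ± 0.174, ABCG2 at 1.11 ± 0.216 and ABCC2 at 0.0842 ± 0.0505. Ranges overlapped between ABCC4 and ABCC5 and between ABCB1 and ABCG2, and between no other neighbours in this order. In T24R2 the order was ABCC3 at 15.9 ± 0.534, ABCC1 at 10.8 ± 0.349, ABCC5 at 5.38 ± 0.396, ABCC4 at 2.44 ± 0.102, ABCC10 at 2.28 ± 0.225, ABCB1 at 0.676 ± 0.209, ABCC2 at 0.357 ± 0.0842 and ABCG2 at 0.158 ± 0.0281. Here ABCC4 and ABCC10 were the only neighbours whose ranges overlapped. ABCC3 thus took the first place from ABCC1, and ABCG2 the last from ABCC2.

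**Figure D2:**
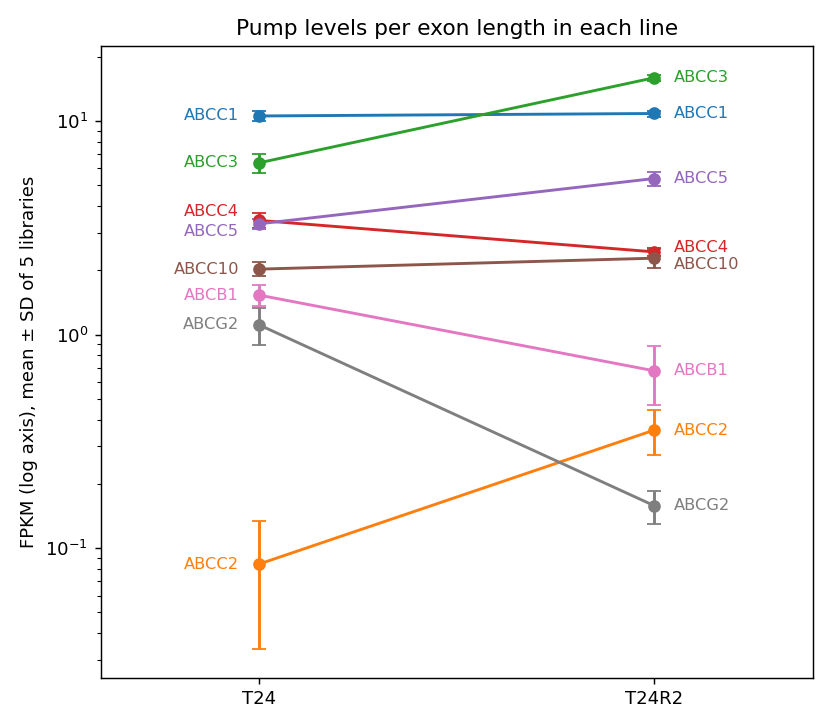
Pump levels per exon length (FPKM, log axis) in T24 and T24R2, with points and bars giving mean ± SD of 5 libraries and lines joining the same pump. The lines of ABCC3 and ABCC1 cross near the top and those of ABCC2 and ABCG2 near the bottom.

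The summed level of the 8 pumps was 28.4 ± 0.580 FPKM in T24 and 38.1 ± 0.748 FPKM in T24R2, with ranges of 27.7 to 29.2 and 37.4 to 38.97. ABCC3 made up 22.4% of the sum in T24 and 41.9% in T24R2, and ABCC1 37.2% and 28.5%. ABCB1 and ABCG2 made up 5.40% and 3.91% in T24, and 1.78% and 0.415% in T24R2. No test was made on these sums, which are on a scale relative to all mRNA.

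Ratios between pumps within a library do not depend on scaling. Of 28 pairs of pumps, 2 stood in opposite order in every library of T24 and of T24R2. The ratio of ABCC1 to ABCC3 was 1.66 in T24 and 0.680 in T24R2 (geometric means), and that of ABCC2 to ABCG2 was 0.0645 and 2.24. ABCC4 and ABCC5, level in T24 at a ratio of 1.04, stood at 0.454 in T24R2. The ratio of ABCC1 to ABCC10 overlapped between the lines, at 5.22 and 4.77.

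Of 40 other ABC genes, 25 were tested, 4 were higher in T24R2, 10 were lower and 11 were not called. The called share of 56% again lay near the background of 51.4%, and the median log2FC was -0.15. Of 15 not tested, 4 (ABCB5, CFTR, ABCG5 and ABCG8) had no count in any library.

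The ABCA genes, most of which move lipids, counted 6 of 9 tested as lower and 1 as higher, against 26.5% and 24.9% of all tested genes. No test of this subgroup was made. ABCA6, ABCA9 and ABCA13, all called lower, passed the count filter only through T24, where they were higher, which limits this comparison. ABCA13, a very large member, held 57 to 82 counts in T24 libraries and 0 to 2 in T24R2 libraries. From summed counts of 352 and 4, its T24 level was 103 times the T24R2 level, with an exact counting interval of 39.8 to 379. ABCA6 fell from 11.2 ± 2.86 CPM to 0.728 ± 0.272 CPM, with a log2FC of -3.90. ABCA3, which loads surfactant lipids into lamellar bodies, went up from 9.53 ± 2.45 CPM to 39.3 ± 3.09 CPM (SD, n = 5 each), with a log2FC of 2.04 close to that of ABCC2.

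Among the other subfamilies, ABCG1, a cholesterol exporter and close relative of ABCG2, fell from 17.8 ± 2.96 CPM to 1.98 ± 0.499 CPM, with a log2FC of -3.16. ABCF2, which has no membrane domain, rose from 12.6 ± 2.20 CPM to 33.5 ± 3.02 CPM. ABCB8, of the mitochondrial inner membrane, rose from 25.9 ± 2.94 CPM to 54.2 ± 1.87 CPM (SD, n = 5 each). ABCC6, a relative of ABCC1 with near-identical pseudogene copies that make its counts uncertain, was not tested and was named after its values were seen. It held 2 to 17 counts in T24 libraries and 0 in all T24R2 libraries, at least 3.56-fold lower against a floor of 3 counts per library.

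**Figure D3:**
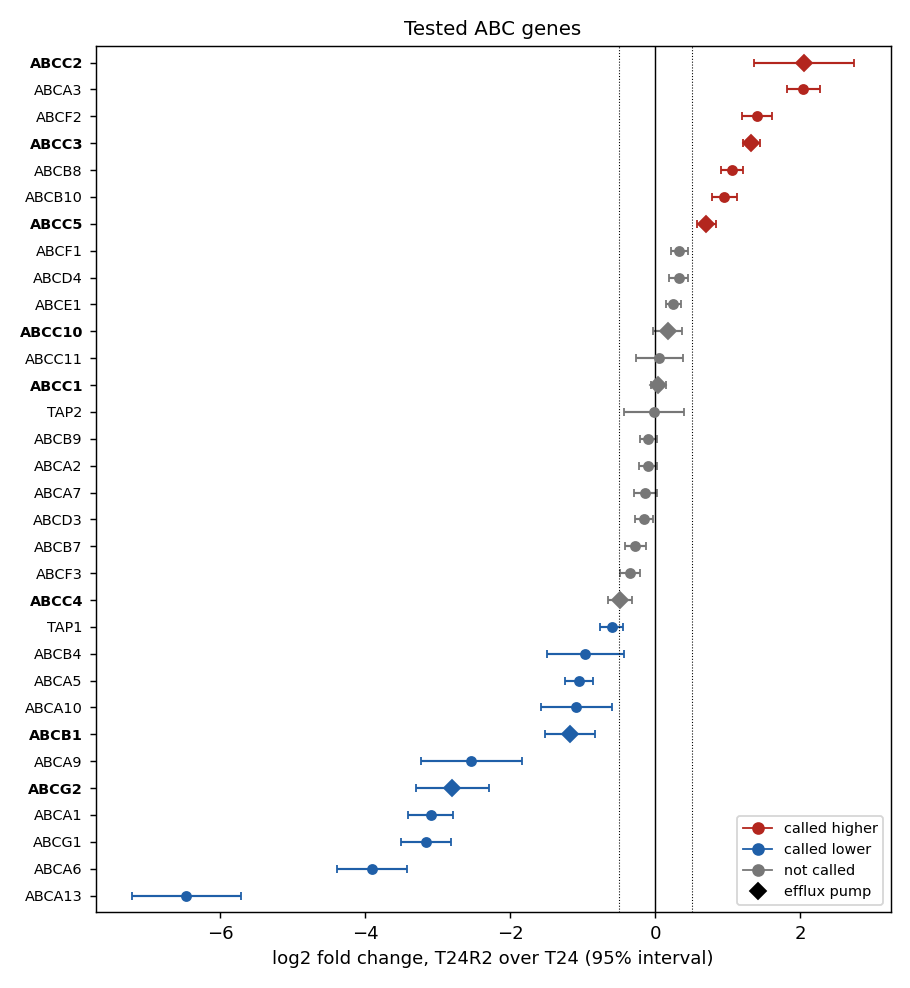
Fitted log2 fold changes, T24R2 over T24, of 32 of the 33 tested ABC genes with 95% intervals; diamonds and bold names are the 8 pumps, and dotted lines mark the minimum of 0.5 either way. ABCC2 and ABCC3 lie among the highest ABC genes and ABCG2 among the lowest, with ABCA13 far below the rest.

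For the pumps, the ABC gene with the most similar pattern over the 10 libraries was found as the smallest root mean square distance between log2 CPM values centred on each gene's mean, among 32 candidates. The nearest were ABCB8 to ABCC3 at 0.212, ABCB10 to ABCC5 at 0.196 and ABCA3 to ABCC2 at 0.377. ABCA1, another cholesterol exporter, was nearest to ABCG2 at 0.361. The pumps that were not called lay nearest to genes that were not called, ABCD3 to ABCC1 at 0.109, ABCD4 to ABCC10 at 0.127 and ABCF3 to ABCC4 at 0.139. These distances all share the same 10 libraries. They include the difference between the lines that also sets the call, so genes alike in call tend to lie near each other by construction.

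Genes that control, anchor or work beside the pumps were taken as a list of 26, of which 20 were tested, 3 were higher in T24R2 and 8 were lower. Their called share of 55% lay near the 51.4% of all tested genes, and their median log2FC was -0.29. Of the called genes, NR1I2 passed the count filter only through its counts in T24, and SLC47A2 only through its counts in T24R2. The transcription factor NFE2L2 (NRF2), which binds the antioxidant response element and drives several ABCC genes, rose from 98.9 ± 2.33 CPM to 280 ± 23.3 CPM (SD, n = 5 each), with a log2FC of 1.50 (SE 0.05; adjusted p 2.25e-26, edgeR's quasi-likelihood test). Its T24 libraries held 859 to 950 counts and its T24R2 libraries 2813 to 3317.

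The nuclear receptor NR1I2 (PXR), a drug sensor that drives ABCB1 and ABCC2, held 34 to 54 counts in T24 libraries and 0 in all 5 T24R2 libraries, at least 16.3-fold lower against the floor of 3 counts per library. ABCB1 was lower and ABCC2 higher in the same libraries. Whether NFE2L2, NR1I2 or the other regulators set the level of any pump was not tested. The related receptor NR1I3 (CAR) rose with a log2FC of 0.60, but 20.4% of its exon bases lie under TOMM40L on the opposite strand, and without T24 replicate 2 it was 0.499 and not called. AHR, a receptor for aromatic compounds that drives ABCG2, had a log2FC of -0.35 (adjusted p 0.00500, edgeR's quasi-likelihood test) and was not called. RXRA, the partner of both nuclear receptors, was lower with a log2FC of -0.77. RXRA and the anchor genes and MVP below were named after their values were seen.

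Of 5 tested genes listed as anchors, EZR, RDX and NHERF1 were lower with log2FCs of -0.56, -0.54 and -0.79, and none was called higher. All of the list but CAV1 tie membrane proteins such as pumps to the actin cortex. Of all tested genes, 26.5% were called lower and 24.9% higher, and the counts for so few anchor genes were not tested against these shares. CAV1 lay higher in every T24R2 library with a log2FC of 0.48, under the minimum, and passed it with library size alone (0.64), with upper-quartile scaling (0.55), with a mean of at least 100 counts required (0.51) and without T24R2 replicate 1 (0.503). EZR and RDX lost their calls under both of these scalings, at -0.39 and -0.37 and at -0.48 and -0.46, and RDX also without T24R2 replicate 1, at -0.49. NHERF1 has 12.2% of its exon bases under a gene on the opposite strand. Of 6 tested genes of other drug transport, 1 was higher and 3 were lower, against 24.9% and 26.5% of all tested genes. SLC47A2, an exporter of organic cations, held 0 to 2 counts in T24 libraries and 61 to 80 in T24R2 libraries. Its ratio from summed counts of 3 and 328 was 93.6, with an exact counting interval of 31.8 to 456. SLC29A1, a nucleoside carrier that takes up gemcitabine, fell from 110 ± 5.70 CPM to 25.4 ± 2.68 CPM (SD, n = 5 each). SLCO4A1, a carrier of organic anions, fell from 577 ± 10.3 CPM to 135 ± 9.11 CPM, and the vault protein MVP from 255 ± 7.33 CPM to 119 ± 3.39 CPM. SLCO4A1 has 8.67% of its exon bases under SLCO4A1-AS1 on the opposite strand, which went from a mean of 1242 counts in T24 to 367 in T24R2.

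**Figure D4:**
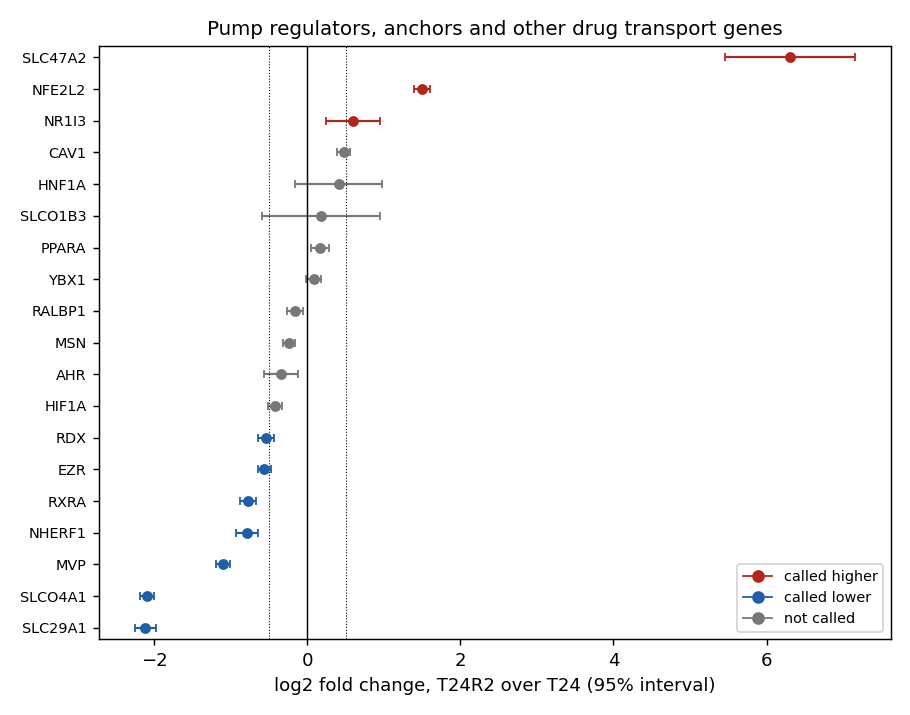
Fitted log2 fold changes, T24R2 over T24, with 95% intervals of the tested pump regulators, anchors and other drug transport genes, with dotted lines at 0.5 either way. NR1I2 is left out because all T24R2 libraries held 0 counts; SLC47A2 and NFE2L2 lie highest and SLC29A1 and SLCO4A1 lowest.

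Neighbours on the chromosome were described for each pump as the 5 nearest tested genes on each side, ordered by start coordinate. Of all tested genes, 24.9% were called higher and 26.5% lower. Beside ABCG2, 7 of the 10 were higher in T24R2 and none was lower, with a median log2FC of 0.92. PKD2, with 1.07, and PPM1K, with 1.06, flanked the pump that fell by 2.80 on the log2 scale. Beside ABCC5, 6 of 10 were lower and none was higher, with a median of -0.73. The flanking genes PARL and EIF2B5-DT had log2FCs of -0.89 and -0.45. EIF2B5-DT was not called, and held 7 to 15 counts in T24 libraries and 6 to 13 in T24R2 libraries. PARL held 62 to 74 and 11 to 59 counts, with T24R2 replicate 3 lowest at 11.

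Beside ABCB1, 7 of 10 were higher and 1 was lower. The lower neighbour was ABCB4, the phospholipid exporter next to ABCB1 and similar to it in sequence, with a log2FC of -0.96 and overlapping libraries, while RUNDC3B, which starts within the ABCB1 gene on the opposite strand and runs beyond it, had 1.86. Beside ABCC2, 4 of 10 were lower and none was higher, a share nearer to that of all genes. COX15 and DNMBP, next to it by start coordinate, had log2FCs of -0.20 and -1.38, and CUTC, which spans COX15 and ends nearer to ABCC2 and was named after its values were seen, had -0.36. Beside ABCC3, 2 of 10 were higher, also near the share of all genes, and none was lower, with SPATA20 at 0.43 and ANKRD40 at 0.13. Beside the pumps that were not called, the medians were 0.24 for ABCC1, 0.52 for ABCC10 and -0.27 for ABCC4, whose 10 neighbours span 17060 kb.

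**Figure D5:**
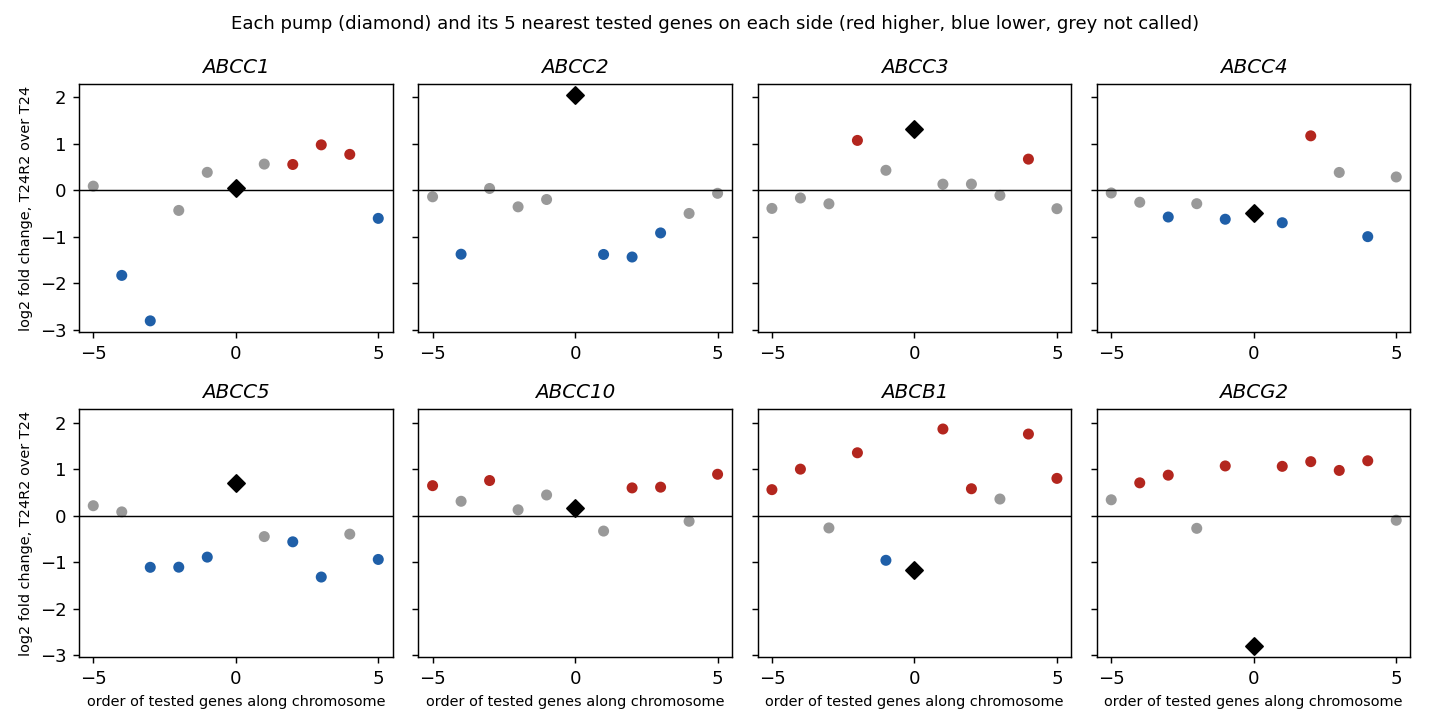
Fitted log2 fold changes, T24R2 over T24, of each pump (diamond) and its 5 nearest tested genes on each side, in order of start coordinate (red higher, blue lower, grey not called). ABCG2 and ABCB1 lie below all of their neighbours shown, and ABCC2, ABCC3 and ABCC5 above all of theirs.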

How the data were processed

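RNA of T24 and T24R2 cells was sequenced in 5 libraries each. The authors used STAR 2.7.0 for alignment (hg38) and SAMtools 1.10 to remove duplicates and reads mapping more than once. Fragments were assigned to GENCODE release 39 genes by featureCounts 2.0.1, run at strand option 1. The deposited values are raw counts. Whether the library kit kept strand is not given in the sources used here, so reads of overlapping genes on opposite strands may not be told apart, and multi-mapping reads of near-identical genes are lost. Of exon bases, 37.1% in ABCF2, 29.5% in AHR and 18.6% in NFE2L2 are shared with a gene on the same strand, where fragments may go uncounted.

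Counts were filtered with filterByExpr, scaled by TMM and compared with edgeR 4.0.16 in R 4.3.3 (glmQLFit, glmQLFTest, no covariate), after a test on simulated data. The SE is the absolute log2FC divided by the square root of the F statistic. CPM used TMM-scaled library sizes, and FPKM divided CPM by the deposited exon length. The biological coefficient of variation was 6.61%. Of 8 pumps, the rest of the ABC genes and their regulators, the text names all pumps, and in each other list the 3 largest called rises and falls, with NFE2L2, NR1I2 and AHR, the ABC gene nearest in pattern to each pump, and the tested genes flanking each called pump. For 1 pump the gene nearest in pattern is not reported here. The members and lists were chosen with earlier results of these data known. Replicates differed by more than counting error, so none was counted as a duplicate. Alternatives were DESeq2 1.42.0, limma 3.58.1 (voom), other scalings, filters and thresholds, a replicate block and leaving out each library.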

Additional observations from a re-analysis of the deposited data

How the results depend on the processing

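The alternatives to edgeR's quasi-likelihood test with TMM scaling numbered 20. Over them, 152 of 157 pump values and 1143 of 1173 values of other genes kept their side of the threshold. No called gene among them changed direction. Some genes that were not called crossed 0, as ABCA2 did with a log2FC of -0.14 to 0.06. With a mean of at least 100 counts required, ABCC2, ABCB1 and ABCG2 were not tested, which left 0 pumps called lower and 2 called higher, and 3 of 16 tested other ABC genes called lower. With an absolute log2FC over 1 required, 4 regulator, anchor and drug transport genes were called lower and ABCC5 dropped out. Leaving out each library in turn gave 3 pumps higher throughout and 2 to 3 lower, 4 other ABC genes higher and 10 lower throughout, and 2 to 4 regulator, anchor and drug transport genes higher and 7 to 8 lower. The log2FC ranged over the alternatives from 1.81 to 2.34 for ABCC2, 1.28 to 1.49 for ABCC3, 0.68 to 0.87 for ABCC5, -1.35 to -1.01 for ABCB1, -2.90 to -2.61 for ABCG2 and -0.52 to -0.33 for ABCC4. Among the anchor genes, library size alone and upper-quartile scaling each ended the calls of EZR and RDX and made CAV1 higher (0.64 and 0.55). An alternative chosen after seeing the data left out genes with over 10% of exon bases under a gene on the opposite strand, and it gave the same counts of called pumps. With the replicate number as a block, 3 pumps were higher and 2 lower, 4 other ABC genes higher and 10 lower, and 3979 of all genes higher and 4261 lower. Libraries with the same number did not deviate together (correlations -0.021 to 0.0155, and replicate 2 alone correlated best with its own number), so no pairing by number was seen. These correlations cannot show whether such libraries were prepared together. Depth limits ABCC2 and ABCG2 most, at 2 to 11 and 7 to 12 counts per library in their lower line.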
